A study of Rattus norvegicus with 96 samples.

Results

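The nuclear genes for oxidative phosphorylation were followed through 8 brain regions of naive, non-dependent and alcohol-dependent rats. The members were the genes whose symbols begin with Nduf (complex I), Sdh (complex II), Uqcr (complex III), Atp5 (complex V) or Cox followed by 4, 5, 6, 7 or 8 (complex IV). This rule, which used no measured value, found 90 of the 14218 genes that had a probe set naming 1 gene only, and each gene was read from its probe set with the highest mean. They comprised 6 core subunits, 28 accessory subunits and 6 assembly factors of complex I, the 4 subunits and 4 assembly factors of complex II, 7 subunits of complex III, 16 of complex IV, 15 of complex V, and 4 other genes (Atp5if1, the inhibitor of the ATP synthase, Cox6c-ps1, Cox7b2 and Ndufa4l2).

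Oxidative phosphorylation takes place in the inner mitochondrial membrane. Complex I (NADH dehydrogenase) and complex II (succinate dehydrogenase, which is also an enzyme of the TCA cycle) feed electrons to ubiquinone, complex III passes them to cytochrome c and complex IV hands them to oxygen. The proton gradient so formed drives complex V, the ATP synthase. Most of the subunits are encoded in the nucleus and some of the core subunits in mitochondrial DNA. Neurons obtain most of their ATP by this route, and a large share of it is spent on restoring ion gradients at synapses and axons.

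The animals were adult male Wistar rats. The naive group had no alcohol. In the non-dependent group 10% alcohol (w/v) was taken by self-administration over 4 weeks. The dependent group added to this 4 weeks of chronic intermittent exposure to alcohol vapor, and its samples were taken 3 weeks after the end of the vapor. The regions were the medial prefrontal cortex (mPFC), the core and shell of the nucleus accumbens (NAcC, NAcSh), the central and basolateral nuclei of the amygdala (CeA, BLA), the dorsolateral and ventral bed nucleus of the stria terminalis (dlBNST, vBNST) and the ventral tegmental area (VTA). RNA from each sample (30 or 50 ng) was amplified and hybridised to Affymetrix whole-genome rat arrays, 4 per region and group. The 8 regions were dissected from the same 4 rats per group, but the labels do not tie an array to its rat. An average over regions therefore counts several arrays of each rat as separate samples, and its p-values measure the spread between arrays and not between rats.

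All values are GCRMA log2 signals, so a difference of 1 is a doubling, and levels of different genes were not compared, since each probe set has its own scale. Of the 96 arrays, 92 were used. The 4 left out were CeA non-dependent array 2, BLA non-dependent array 3, VTA non-dependent array 2 and vBNST dependent array 1, whose highest correlation with another array was 0.375 to 0.960, against at least 0.990 for the others, and whose hybridisation control signal was 10.8 to 14.3, against 7.44 to 10.4. The glutamate transporter Slc17a7 had its highest mean in mPFC (11.4), the dopamine receptor Drd1 in NAcC (11.4) and the dopamine transporter Slc6a3 in VTA (10.5). The neuropeptide Crh was highest in dlBNST (8.49) and CeA (8.20). Other markers hardly separated the regions. Tbr1 averaged 2.35 in mPFC and 2.32 in VTA, Prkcd 5.14 in CeA and 4.84 in dlBNST, and Zic1 at most 2.71 in any region. None of these markers was highest in vBNST. Ttr, a choroid plexus marker, averaged 9.21 in dlBNST, 7.32 in vBNST and at most 5.16 in the other regions. Carry-over of choroid plexus was not tested. The transcription factor Neurod6 averaged 10.6 in mPFC and 10.7 in BLA. It was at 9.57 on NAcSh naive array 2 and 7.93 on NAcSh dependent array 3, and between 3.26 and 4.11 on the other 10 NAcSh arrays. NAcSh naive array 2 and dependent array 3 were kept, and the counts without them are given beside the results they touch.

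Of the 90 members, 82 passed the filter of a mean log2 signal above 4 and were tested among 8758 genes. The 8 that did not were Cox4i2, Cox6a2, Cox6b2, Cox7b2, Cox8b, Ndufa4l2, Ndufaf1 and Ndufb8. Cox4i2 and Cox6a2, known as the lung and the heart and muscle forms of complex IV subunits, averaged between 2.3 and 2.9 in each region. Their counterparts Cox4i1 and Cox6a1, the forms found in most tissues, passed the filter in each region. Cox8b averaged 3.94 in VTA and at most 3.1 elsewhere.

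The regions differed in their levels of these genes far more than the groups did. In a limma fit of all 24 combinations of region and group, 82 of the 82 tested members differed among the 8 regions, where 99.7% of all genes did. Levels were high in mPFC and VTA, intermediate in dlBNST and vBNST, and low in NAcC, NAcSh, CeA and BLA. The mean over the 33 tested complex I subunits was 10.56 ± 0.08 (SD, n = 12 arrays) in mPFC, 10.25 ± 0.18 (n = 11) in VTA, 10.03 ± 0.16 (n = 12) in dlBNST and 10.03 ± 0.07 (n = 11) in vBNST. The same mean was 9.80 ± 0.09 (n = 11) in CeA, 9.70 ± 0.08 (n = 11) in BLA, 9.67 ± 0.16 (n = 12) in NAcC and 9.61 ± 0.13 (n = 12) in NAcSh. The mPFC arrays, from 10.48 upwards, lay above the arrays of NAcC, NAcSh, CeA, BLA, dlBNST and vBNST, the highest of which was at 10.30, and overlapped only with those of VTA, which reached 10.56. In this bulk tissue, fewer cells of a type and less RNA per cell cannot be told apart. Gapdh was at 12.77 to 13.59 on the mPFC arrays and at most 11.71 on the other arrays used. The part of array signal or sample handling in the regional order was not tested.

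**Figure D1:**
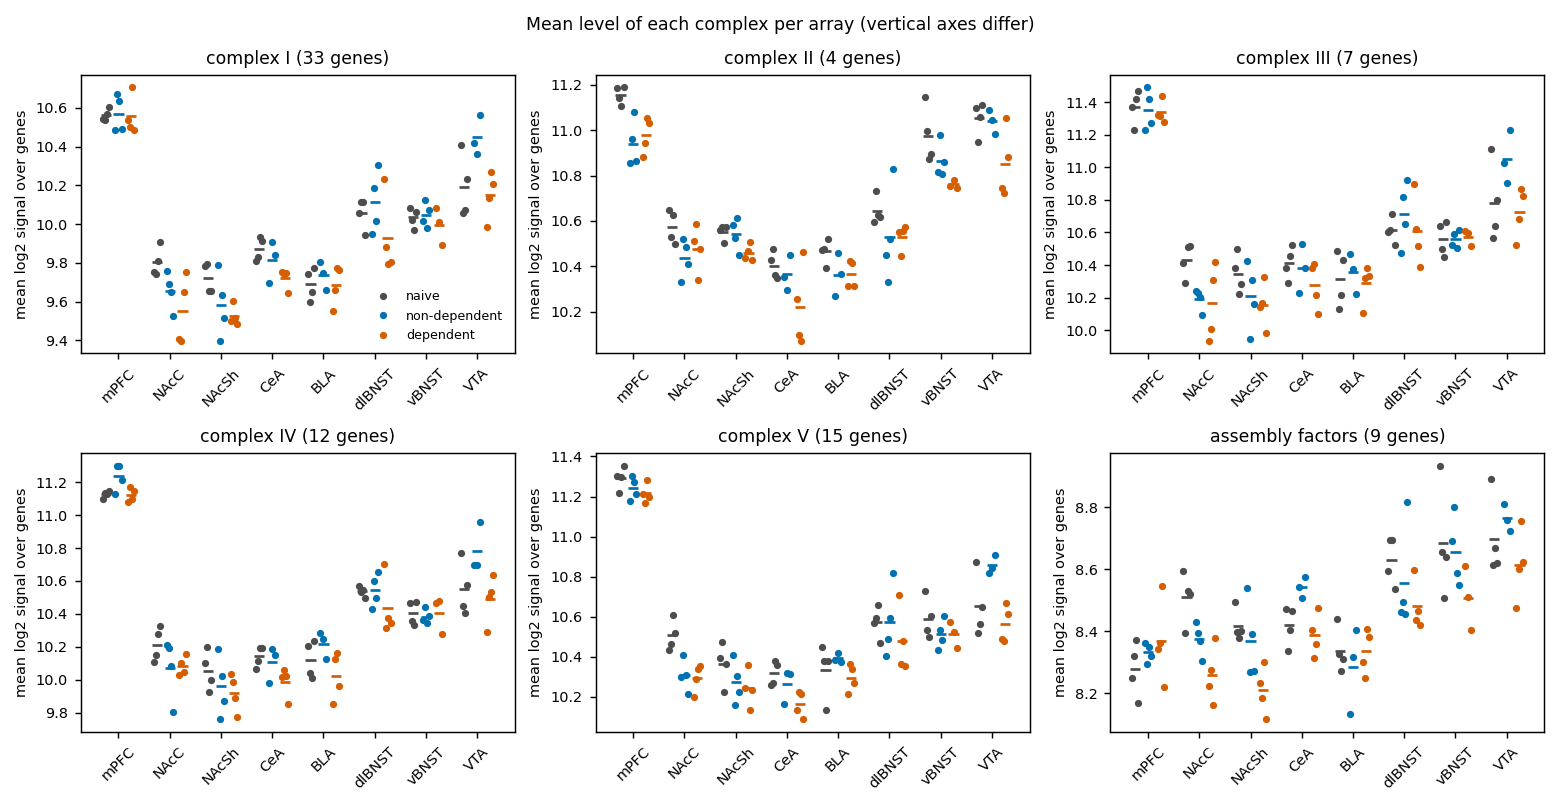
Mean log2 signal over the tested subunits of each complex and over the assembly factors (vertical axis) by region (horizontal axis), 1 point per array, coloured by group, with the mean of each group. Complexes I, III, IV and V stand highest in mPFC, complex II is at 11.02 in mPFC and 10.98 in VTA, and the assembly factors are at 8.33 in mPFC and 8.69 in VTA.

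In mPFC, 61 of the 82 members were higher than the mean of the other 7 regions and 17 were lower (adjusted p under 0.05, Benjamini-Hochberg over all genes), where 42.0% of all genes were higher and 46.6% lower. The median difference of the members was 0.48, against -0.06 for all genes. Setting the medians of the arrays equal moved each mPFC difference by -0.27, which left the members' median at 0.21 and 45 members higher and 24 lower. The shares of all genes after such scaling were not counted, here or in the regions below. The distance of 0.55 between the members and all genes is not touched by such a shift. All 6 core subunits of complex I were higher (median 1.01), and so were 19 of 27 accessory subunits (0.54), 5 of 7 subunits of complex III (0.52), 11 of 12 of complex IV (0.56), 12 of 15 of complex V (0.38) and 3 of 4 of complex II (0.29). Of the 5 assembly factors of complex I, 2 were higher and 3 lower (median -0.70), and of the 4 of complex II, 2 were higher and 1 lower (median 0.12). Over all 9 assembly factors 4 were higher and 4 lower, which is near the shares of all genes.

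The widest regional spread belonged to Uqcrc1, the core protein 1 of complex III. Its lowest, median and highest mPFC values were 9.89, 10.39 and 10.78, and the corresponding NAcSh values were 4.99, 6.03 and 6.45. The highest array outside mPFC, a VTA array at 9.56, was below every mPFC array. The mPFC level was 3.62 ± 0.138 (SE) above the other regions, and the NAcSh level 1.46 below them (difference -1.46).

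Atp5mg, the g subunit of the ATP synthase, had 8.12, 8.57 and 8.89 as its lowest, median and highest mPFC values, while its highest value in any other region was 6.32 in dlBNST. The difference was 3.35 ± 0.102 (SE). Cox4i1, the common form of a complex IV subunit, lay between 13.31 and 13.66 in mPFC and between 9.65 and 12.07 elsewhere, a difference of 2.80. Again the mPFC arrays did not overlap with the others.

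Ndufv1, the subunit of complex I that binds FMN and takes electrons from NADH, was 2.66 higher in mPFC. Atp5f1d, the delta subunit of the ATP synthase, was 2.83 higher. Other members at least 1.89 higher were Ndufv3 (2.16), Ndufb10 (2.01), Cox6a1 (1.97) and Ndufs8 (1.89), the last an iron-sulfur subunit of complex I. For Ndufv3 the other probe set of the gene gave only 0.29, so its difference depends on the probe set read.

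The 17 members that were lower in mPFC comprised 12 subunits, 4 assembly factors and Cox6c-ps1. Ndufaf7, a methyltransferase needed for the assembly of complex I, had 5.91, 6.71 and 7.03 as its lowest, median and highest values in mPFC, and no array of another region was below 7.18. Its difference was -1.34, and its other probe set gave -0.46. Ndufaf5 (-0.77) and Ndufaf4 (-0.70), which also act in assembling complex I, were lower as well, and so was Sdhaf3 (-0.67), an assembly factor of complex II. The subunits furthest below the other regions were Ndufs6 (-0.36), Ndufa1 (-0.34), Ndufs4 (-0.31) and Sdhd (-0.30), but the dimmer probe set of Sdhd, a membrane anchor of complex II, gave 0.56.

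VTA held the second large group of higher members: 65 of 82 were higher than the mean of the other 7 regions and 5 were lower, where 41.5% of all genes were higher and 36.4% lower. The median was 0.29 for the members and 0.04 for all genes. The rise included 24 of 27 accessory and 5 of 6 core subunits of complex I, 4 of 4 subunits of complex II, 6 of 7 of complex III, 9 of 12 of complex IV and 11 of 15 of complex V. Ndufs7, an iron-sulfur subunit of complex I close to the ubiquinone site, lay between 8.97 and 10.50 in VTA and between 7.09 and 8.77 in NAcC, and was 1.12 ± 0.115 (SE) above the other regions. Sdhaf3, an assembly factor of complex II, was 0.99 ± 0.087 higher, at 8.29 to 9.69 in VTA against 6.93 to 7.99 in mPFC. Ndufaf3 (-0.43) and Uqcr11 (-0.37) were the members furthest below the other regions.

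The nucleus accumbens and the amygdala were low. Each difference was taken from a mean that includes mPFC and VTA, so part of these low values restates the rise in those regions. In NAcC, 9 members were higher and 52 lower (all genes, 28.1% and 44.9%), in NAcSh 4 and 57 (27.8% and 44.0%), in CeA 10 and 52 (32.9% and 31.5%) and in BLA 1 and 59 (21.1% and 35.8%). The members' medians were -0.20, -0.25, -0.20 and -0.22, and those of all genes -0.09, -0.09, 0.01 and -0.07. With the array medians set equal the counts were 19 and 34 in NAcC and 13 and 41 in NAcSh, each difference having moved by 0.15 in the former and 0.13 in the latter. Without NAcSh naive array 2 and dependent array 3 the NAcSh counts were 4 and 57. The core subunits of complex I were among the lowest, with medians of -0.59 in NAcC, -0.61 in NAcSh, -0.34 in CeA and -0.40 in BLA.

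Uqcrc1 and Ndufs8 fell furthest below the other regions in NAcC (-1.43 and -1.39), and Uqcrc1 and Cox5b, a zinc-binding subunit of complex IV, in NAcSh (-1.46 and -1.25). In BLA the members furthest below the other regions were Uqcrc1 and Atp5mg (-1.03 and -0.82), both of them far higher in mPFC. CeA had its own members: Atp5pd, the d subunit of the ATP synthase stalk, was -1.22 and Cox4i1 -1.20 below the other regions, while Cox5a, another complex IV subunit, was 0.72 above them. The CeA values of Cox5a ran from 8.68 to 9.27, above the NAcC, NAcSh and BLA arrays, the highest of which was at 8.62. The members above the other regions in NAcC and NAcSh were led by Ndufaf4 (0.39 and 0.41), the same assembly factor that was low in mPFC. In BLA the only member called higher was Sdhaf1 (0.15), and with naive arrays alone its difference was -0.03.

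The bed nucleus regions were close to the average. In dlBNST, 30 members were higher and 12 lower (all genes, 35.4% and 20.9%), with a median of 0.05 that turned to -0.01 with array medians set equal, where the counts were 21 and 20. In vBNST, 31 were higher and 12 lower (38.1% and 25.1%), with a median of 0.08, and 21 and 15 with array medians set equal. In both regions the share of higher members was near that of all genes, and the share of lower members (14.6%) was below it. Ndufa11 (0.54) and Cox6a1 (0.50) stood highest in dlBNST, with Ndufs1 (-0.52), the subunit of complex I with the most iron-sulfur clusters, and Uqcrfs1 (-0.42), the Rieske iron-sulfur protein of complex III, lowest. In vBNST, Ndufaf3 (0.59) and Sdhc (0.48) stood highest and Atp5f1d (-0.44) and Atp5mg (-0.34) lowest. The mean of the other regions includes mPFC, where Atp5f1d averaged 9.60 and Atp5mg 8.55. The negative differences therefore do not show vBNST to be low among the regions outside mPFC. The lowest region means of both genes were those of NAcSh (6.29 and 4.86).

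**Figure D2:**
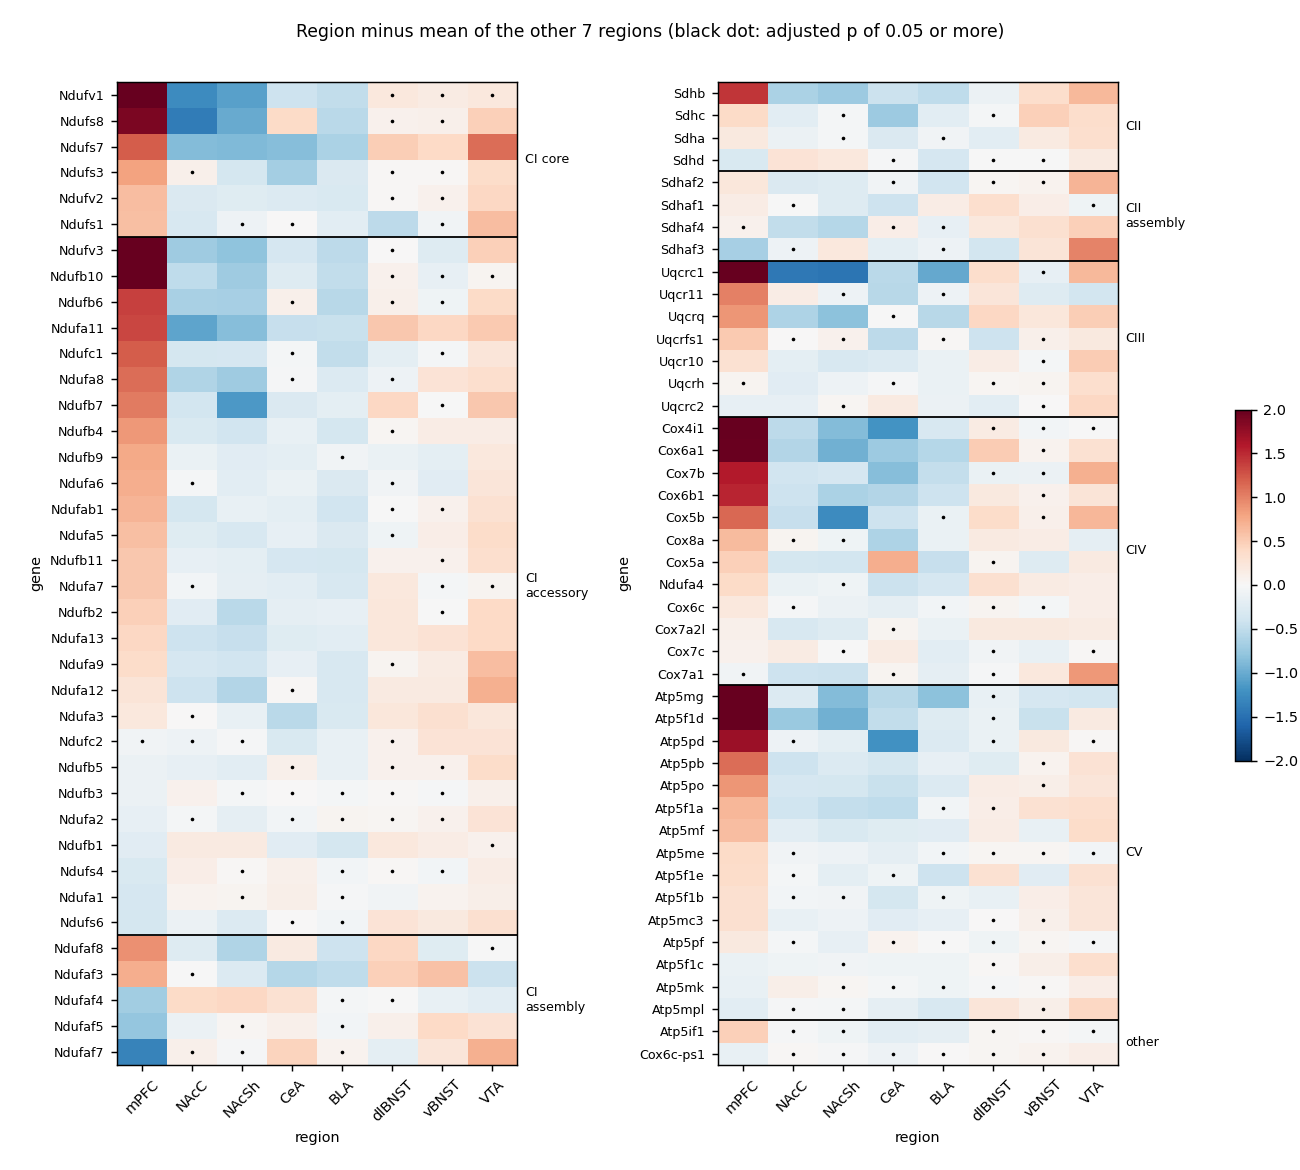
Difference of each tested member (rows, ordered by complex) from the mean of the other 7 regions in each region (columns), in log2 units on a colour scale that ends at -2 and 2, with a dot where the adjusted p was 0.05 or more. The mPFC and VTA columns are mostly above 0 and the NAcC, NAcSh, CeA and BLA columns mostly below 0, while several assembly factors run against their complex.

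The subunits shared this regional order without being alike. Over the 8 region means, the median correlation between pairs of the 71 tested subunits was 0.62, against 0.02 between pairs of all genes, 0.16 between pairs of assembly factors and 0.28 between a subunit and an assembly factor. These are descriptions over 8 points that come from the same arrays. Sdhb, Atp5po and Cox6b1 followed the mean of the other subunits most closely (r = 0.98 for each). Ndufaf4 ran opposite to it (r = -0.93), and so did Ndufa1 (-0.71) and Ndufs4 (-0.65). Ndufb3, an accessory subunit of complex I, was almost level, with region means from 12.43 to 12.61. Between arrays of the same region and group, the median correlation between subunits was 0.22, against 0.01 for all genes.

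Other genes of energy metabolism are set here against all genes, of which 42.0% were higher and 46.6% lower in mPFC and 41.5% and 36.4% in VTA. In mPFC, 13 of 13 glycolytic genes were higher (median 1.35), among them Gpi (5.67) and Eno1 (4.54), and so were 13 of 17 genes of the TCA cycle and pyruvate dehydrogenase (0.42). In VTA, 14 of 17 of the TCA cycle list were higher (0.39). Of the glycolytic genes 7 of 13 were higher there and 4 lower (0.17), which is not far from the shares of all genes. Regulators of mitochondrial gene expression were lower in mPFC in 10 of 15 cases and higher in 2, led by Gabpa (-1.97), a subunit of nuclear respiratory factor 2, and Tfam (-1.23), the mitochondrial transcription factor. Of 29 other respiratory chain genes outside the symbol rule, mostly assembly factors, 8 were higher and 16 lower in mPFC, but 17 were higher and 3 lower in VTA.

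Markers of cell types and of RNA length also differed between regions. Of the 12 neuron markers, 10 were higher in mPFC and none lower (median 0.90). Their mean was 11.31 to 11.88 on the mPFC arrays and at most 10.56 on VTA arrays. In VTA, 9 of 9 oligodendrocyte markers were higher (median 1.80), with a mean of 10.32 to 11.08 against 8.25 to 9.25 in mPFC. The log2 ratio of 3' to 5' control probe sets averaged 5.02 in mPFC and 4.36 in CeA, the highest and lowest of the regions. With that ratio as a covariate the mPFC median of the members was 0.53 and the VTA median 0.29. The part of the marker differences in the levels of the members was not tested.

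The groups were then compared over the 8 regions together, each region weighing the same and each array counted as a replicate, although the regions share the 4 rats of a group. The questions were whether alcohol drinking without vapor (naive against non-dependent), vapor on top of drinking (non-dependent against dependent), or both (naive against dependent) went with other levels of these genes. Vapor on top of drinking here includes the higher alcohol intake of the dependent rats. The comparisons share arrays, so their results are not independent of each other. A negative difference means a lower level in the group named second.

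Of the 82 members, 17 were lower and 0 higher in dependent rats (20.7% of the members), where 9.07% of all genes were lower and 4.02% higher. The differences were small: 76 of 82 were below 0, with a median of -0.08, against -0.03 over all genes, 35.8% of which were above 0. By complex, 3 of 4 subunits and 2 of 4 assembly factors of complex II were lower, 2 of 6 core and 4 of 27 accessory subunits of complex I, 1 of 7 of complex III, 2 of 12 of complex IV and 3 of 15 of complex V. None of the 5 assembly factors of complex I passed the test. The count depended on the choice of arrays: with 95 arrays, only CeA non-dependent array 2 left out, 1 member (Ndufs6) passed, and with all 96 arrays 0. Without NAcSh naive array 2 and dependent array 3 it was 14, and it was 3 between non-dependent and dependent and 1 between naive and non-dependent rats.

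Sdhb, the iron-sulfur subunit of complex II, fell by 0.24 ± 0.044 (SE) on the log2 scale, from a mean of 10.45 to 10.20 (limma adjusted p = 0.0001), and was lower in 8 of 8 regions. In NAcSh the naive arrays were at 9.95, 10.07, 9.76 and 9.96, the non-dependent at 9.91, 9.61, 9.68 and 9.46, and the dependent at 9.66, 9.61, 9.62 and 8.99. In CeA the naive arrays were at 9.92, 10.18, 10.03 and 10.03, the non-dependent at 10.13, 10.10 and 10.11, and the dependent at 9.76, 9.59, 9.67 and 9.87. Naive and dependent arrays did not overlap in either region, and in CeA the dependent arrays were below the non-dependent arrays as well. The log2 ratio of 3' to 5' control probe sets, a sign of RNA length, was 4.14 to 4.38 on naive and 4.43 to 5.15 on dependent NAcSh arrays, which did not overlap. In CeA it was 3.96 to 4.24 on naive and 4.03 to 4.58 on dependent arrays, which overlapped. With the ratio as a covariate over all regions Sdhb differed by -0.23 and 17 members were lower. These were not the same 17, since Ndufv2 no longer passed. In BLA the Sdhb difference was only -0.04, and there the groups overlapped.

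Sdha, the catalytic flavoprotein of complex II, fell by 0.12 ± 0.029 (adjusted p = 0.0035), lower in 7 of 8 regions. In mPFC the naive arrays were at 12.03, 11.98, 11.92 and 11.98, the non-dependent at 11.72, 11.78, 11.91 and 11.79, and the dependent at 11.72, 11.78, 11.84 and 11.78. Both groups that drank alcohol were below the naive arrays there. In NAcSh the Sdha arrays of these groups overlapped. Sdhc, which anchors the complex in the membrane, fell by 0.17 (adjusted p = 0.010) with its largest difference in VTA (-0.49), while the other anchor, Sdhd, differed by -0.05 (adjusted p = 0.24). The assembly factors Sdhaf1 and Sdhaf3, which help to insert the iron-sulfur clusters of Sdhb, differed by -0.18 and -0.21.

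In complex I, Ndufs3 fell by 0.23 ± 0.052 (adjusted p = 0.0016) and was lower in 8 of 8 regions. In dlBNST its naive arrays were at 9.54, 9.88, 9.52 and 9.30, the non-dependent at 9.25, 9.52, 9.42 and 9.61, and the dependent at 9.22, 8.87, 9.06 and 9.07. The dependent arrays were below all others. Ndufs6, a zinc-binding accessory subunit, fell by 0.13 ± 0.029 (adjusted p = 0.0014), most in dlBNST (-0.43), but was higher in VTA (0.13). The core subunit Ndufv2 (-0.12) and the accessory subunits Ndufb2 (-0.16), Ndufa8 (-0.15) and Ndufc1 (-0.23) were also lower.

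In complex V, Atp5mg fell by 0.38 ± 0.083 (adjusted p = 0.0014), lower in 8 of 8 regions and most in NAcSh (-1.01). Its NAcSh naive arrays were at 5.25, 5.78, 4.88 and 5.59, the non-dependent at 5.21, 4.95, 4.45 and 4.79, and the dependent at 4.73, 4.35, 4.15 and 4.24. Dependent arrays were below each naive array, and the non-dependent arrays overlapped with both. The dependent values lay just above the filter of 4. These arrays include NAcSh naive array 2 and dependent array 3, which were high in Neurod6, and Atp5mg averaged 8.55 in mPFC. With both left out, Atp5mg still passed over the 8 regions. The 3' to 5' ratios of the naive and dependent NAcSh arrays did not overlap, as given for Sdhb, and their part was not tested. Atp5f1a, the alpha subunit of the catalytic head, differed by -0.30 (adjusted p = 0.0027), and Atp5pd by -0.17. In complex IV, Cox6a1 (-0.26) and Cox4i1 (-0.24) passed, and in complex III Uqcrfs1 (-0.18), which was lower in 8 of 8 regions.

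**Figure D3:**
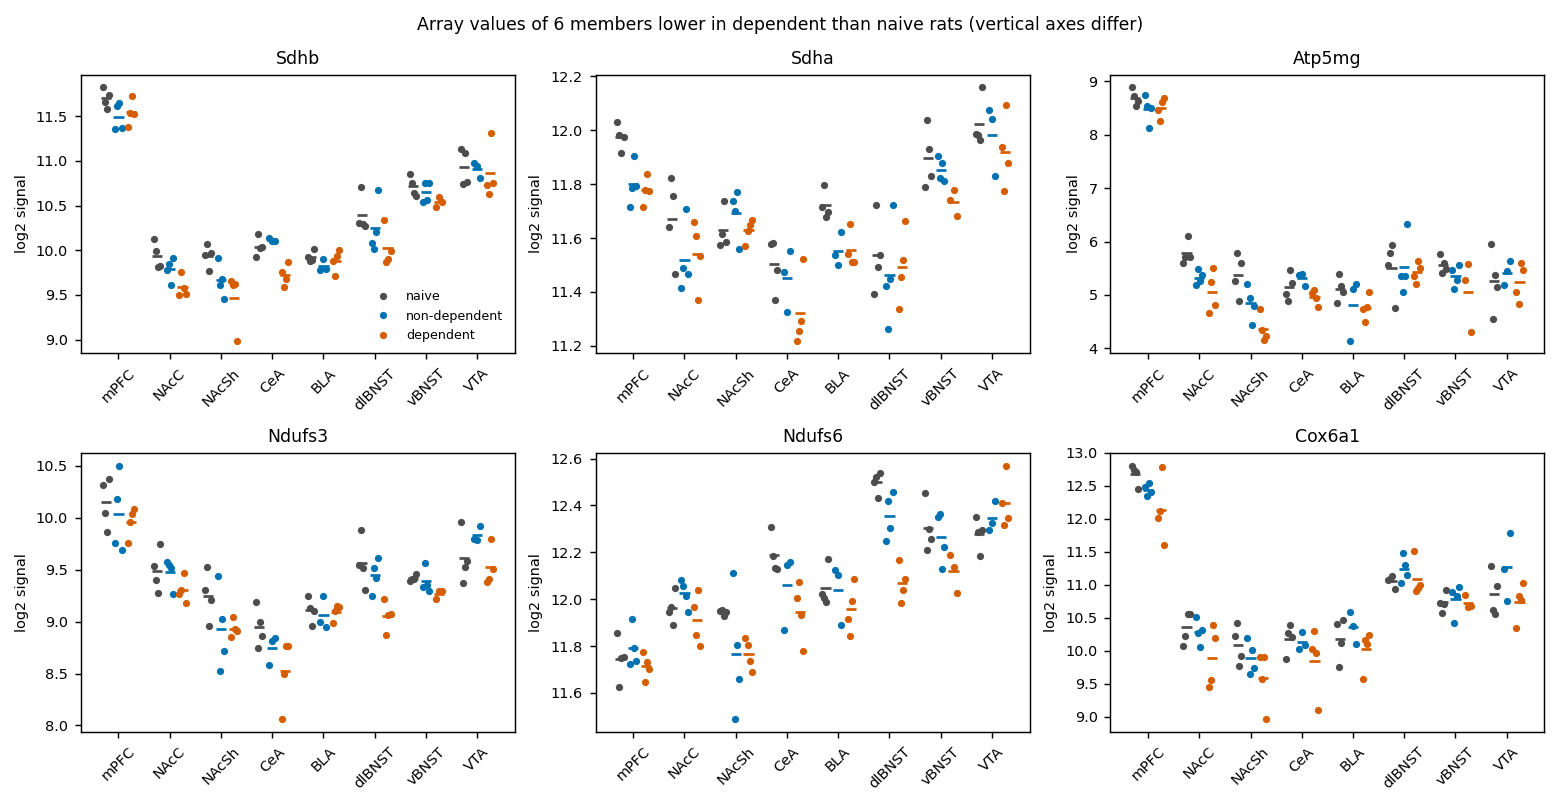
Log2 signal of Sdhb, Sdha, Atp5mg, Ndufs3, Ndufs6 and Cox6a1 on every array (vertical axes) by region (horizontal axis) and group (colour), with group means. The spread between regions is wider than the differences between groups, and for Sdhb, Atp5mg and Ndufs3 the dependent mean is below the naive mean in each region.

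Vapor exposure on top of drinking gave fewer calls. Between non-dependent and dependent rats, 4 of 82 members were lower in dependent rats and 0 higher, where 0.502% of all genes were lower and 0.285% higher. They were Ndufb6 (-0.25 ± 0.059, adjusted p = 0.022), Ndufb2 (-0.17, adjusted p = 0.029), both accessory subunits of complex I, and the complex IV subunits Cox5b (-0.28, adjusted p = 0.042) and Cox6a1 (-0.29, adjusted p = 0.045). Only Cox6a1 of these was lower in 8 of 8 regions. In mPFC its non-dependent arrays were at 12.48, 12.35, 12.55 and 12.40 and its dependent arrays at 12.01, 12.12, 12.79 and 11.61, which overlap. Of the 82 members 80 were below 0 (median -0.08), against a median of -0.01 over all genes, 41.8% of which were above 0. This direction turned with all 96 arrays, where 53 of 82 were above 0 (median 0.06), and without VTA the median was -0.05. The calls depended on the arrays and regions used: leaving out a replicate number of a group, which takes away its arrays in every region, gave 0 to 6 calls, leaving out CeA or dlBNST gave 0, and the 95 and the 96 arrays gave 0. Ndufb6 passed in 7 of these 12 replicate omissions, Ndufb2 in 6, Cox5b in 3 and Cox6a1 in 2. Of the 8 omissions of a region, Ndufb2 passed in 5, Ndufb6 in 3, Cox5b in 2 and Cox6a1 in 1. In the same comparison 9 of 9 oligodendrocyte markers (median -0.08) and 9 of 12 neuron markers (median -0.04) were below 0, none of which passed, and their part in the differences of the members was not tested.

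Drinking without vapor gave 1 call. Uqcrfs1 fell by 0.22 ± 0.061 (adjusted p = 0.035) from naive to non-dependent rats, from a mean of 9.61 to 9.39, and was lower in 8 of 8 regions. No member was higher. Over all genes 1.76% were lower and 0.845% higher. In vBNST its naive arrays were at 9.96, 9.86, 9.64 and 9.77, the non-dependent at 9.71, 9.50, 9.55 and 9.14, and the dependent at 9.38, 9.53 and 9.28. The naive and non-dependent arrays overlapped there, while the dependent arrays were below each naive array. The call was lost when replicate 1, 2, 3 or 4 of the naive group or 1, 2 or 4 of the non-dependent group was left out, and with the 96 arrays. Of the members 38 were above and 44 below 0, where 41.2% of all genes were above 0. This was an average over regions that differed. In VTA 70 of 83 were above 0, where 49% of all genes were. In NAcC 72 of 81 were below 0, where 40.8% of all genes were above 0. Without VTA 27 of 82 were above 0 (median -0.03), without NAcC 51 (0.01) and with all 96 arrays 17 (-0.13).

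**Figure D4:**
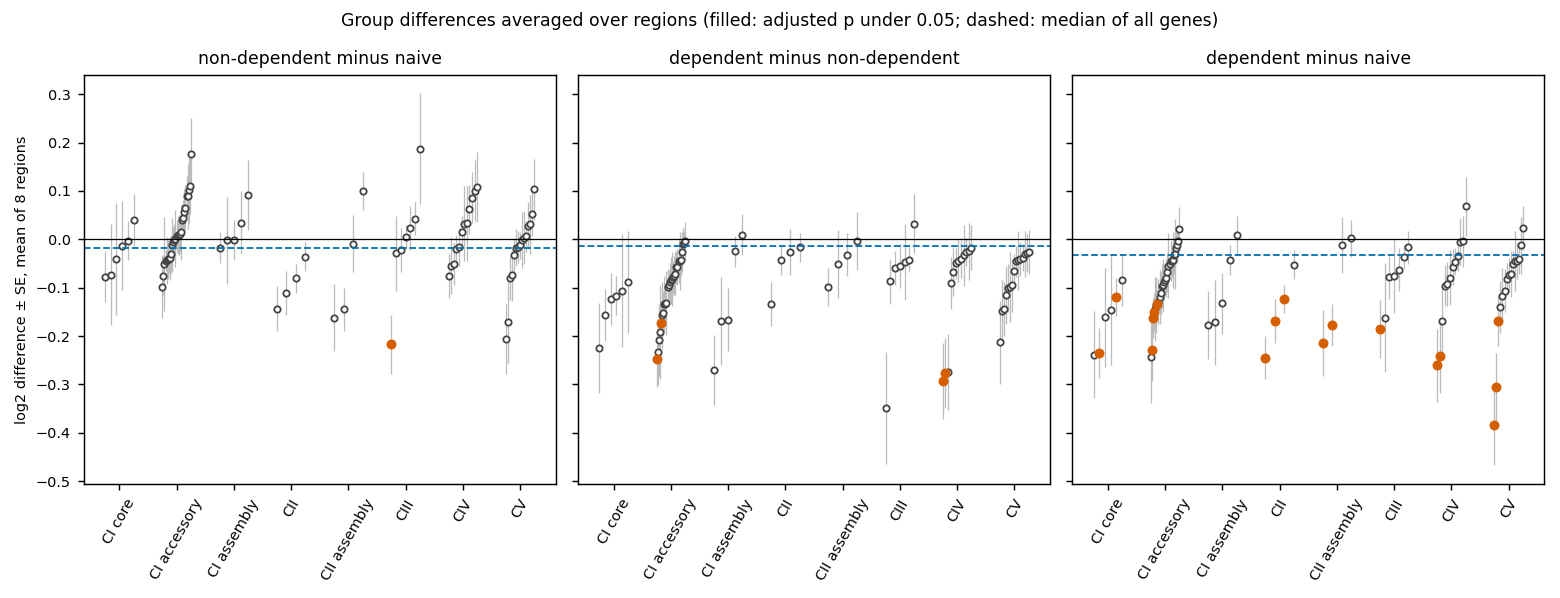
Difference between groups averaged over the 8 regions (log2, vertical axis) for the tested subunits and assembly factors by complex (horizontal axis), 1 panel per comparison, with bars of ± 1 SE, filled points for members that passed the test and a dashed line at the median of all genes. In naive against dependent and in non-dependent against dependent nearly all members are below 0 with the 92 arrays drawn (in the latter 53 of 82 were above 0 with all 96), and in naive against non-dependent they lie on both sides.

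Neighbouring pathways gave the following counts between naive and dependent rats, where 9.07% of all genes were lower and 4.02% higher. Of 17 genes of the TCA cycle list 6 were lower and 0 higher (median -0.14), among them Suclg2 (-0.27) and Suclg1 (-0.20), the subunits of succinate-CoA ligase, and Ogdh (-0.19). Of the mitochondrial carriers and outer membrane proteins 3 of 14 were lower (median -0.09), of glycolysis 1 of 13 (Pfkm, -0.34) and of other respiratory chain genes 3 of 29, the last 2 near the share of all genes. Of 15 regulators, Ppargc1b (0.33) and Gabpa (0.23) were higher and Tfam (-0.14) lower. Of the cell type markers, 4 of 12 for neurons (median -0.12) and 3 of 9 for oligodendrocytes (-0.20) were lower in dependent rats. Of the others 1 of 8 astrocyte and 1 of 5 microglia markers were lower, and 1 of 5 striatal neuron markers was higher (list median 0.25). The mean of the neuron markers, as a deviation from the region mean, ran from -0.18 to 0.87 on naive (median 0.06) and from -0.53 to 0.22 on dependent arrays (median -0.04). The 0.87 was that of NAcSh naive array 2, and without it and NAcSh dependent array 3 the naive arrays reached 0.34. The part of the marker differences in those of the members was not tested.

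Whether the group differences varied among regions was tested by the interaction of group and region. None of the 82 members passed, where 2.32% of all genes did, and 18 members against 1480 of 8758 genes had an unadjusted p under 0.05. Cox5a came closest (F = 2.98, adjusted p = 0.051).

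Within single regions, with 3 or 4 arrays per group, no member passed in any of the 24 comparisons. Over all genes 0.0779% passed between naive and non-dependent rats in mPFC, 0.0556% between naive and dependent rats in mPFC, 0.103% between naive and dependent rats in dlBNST and 0.0% in the other comparisons. Weighting arrays by their quality gave 25 calls of members, 20 of them between non-dependent and dependent rats in VTA. Fitting only the arrays of both groups compared gave 2, in mPFC. The shares of all genes that passed in these settings were not counted, so the calls cannot be read as particular to the members. The smallest adjusted p belonged to Ndufs6 in dlBNST (0.086). Its naive arrays were at 12.50, 12.52, 12.43 and 12.54 and its dependent arrays at 12.17, 11.99, 12.04 and 12.09, a difference of -0.43 with no overlap.

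The medians furthest from 0 were those of VTA. From naive to non-dependent rats 70 of 83 members were above 0 (median 0.20), against 49% of all genes (median -0.01). From non-dependent to dependent rats 75 of 83 were below 0 (median -0.24), where 46.5% of all genes were above 0 (median -0.02). In the latter comparison 24 members had an unadjusted p under 0.05, all of them lower, or 28.9% of the members against 15.3% of all genes. The complex I mean was 10.19 ± 0.16 (SD, n = 4) in naive, 10.45 ± 0.10 (n = 3) in non-dependent and 10.15 ± 0.12 (n = 4) in dependent VTA. The complex V means were 10.65 ± 0.16, 10.86 ± 0.05 and 10.56 ± 0.10. No interaction of a member passed its test, so a difference of VTA from other regions was not shown.

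Ndufv3, an accessory subunit of complex I, had the lowest p in VTA. Its naive arrays were at 5.40, 4.75, 4.86 and 5.06, the non-dependent at 5.66, 5.93 and 6.55, and the dependent at 4.52, 4.89, 4.92 and 5.05. The non-dependent arrays were above both other groups, and the difference from non-dependent to dependent was -1.21 (adjusted p = 0.10). Uqcrc1 was at 8.33, 7.74 and 9.56 in non-dependent and 6.60, 7.14, 7.43 and 7.98 in dependent VTA, which overlap (-1.26, adjusted p = 0.24). Of the neuron markers 11 of 12 were below 0 in the same comparison (median -0.31), where 46.5% of all genes were above 0. Their means were 10.50 to 10.56 on non-dependent, 9.78 to 10.37 on dependent and 10.27 to 10.45 on naive arrays. Of the glycolytic genes 11 of 13 were below 0 there (median -0.31), and of the oligodendrocyte markers 7 of 9 (median -0.28). Their part in the VTA differences was not tested.

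In NAcC, 72 of 81 members were below 0 from naive to dependent rats (median -0.16, all genes -0.05, of which 39.8% were above 0). Of these members 20 were at an unadjusted p under 0.05, or 24.7% of the members against 8.9% of all genes. The lowest p was that of Ndufs7, with naive arrays at 8.37, 8.46, 8.77 and 8.60 and dependent arrays at 7.15, 7.09, 7.71 and 8.26 (-0.995, adjusted p = 0.36). The groups did not overlap. From naive to non-dependent rats 72 of 81 were also below 0 (median -0.13, all genes -0.04, of which 40.8% were above 0), a comparison with the same naive arrays. In CeA, 73 of 82 were below 0 from naive to dependent rats (median -0.13, all genes -0.02, of which 45.5% were above 0), led by Ndufa8 with 11.70, 11.69, 11.83 and 11.58 in naive and 11.11, 11.26, 11.24 and 11.40 in dependent rats (-0.45, adjusted p = 0.38). There 9 of 9 oligodendrocyte markers were below 0 as well (median -0.48), and their part was not tested.

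Ndufa2, an accessory subunit of complex I, had the lowest p in mPFC with arrays at 10.70, 10.83, 10.79 and 10.74 in naive and 11.28, 11.26, 11.21 and 11.17 in non-dependent rats (0.46, adjusted p = 0.11), with no overlap. In vBNST it was Atp5f1a, at 11.59, 10.93, 11.02 and 11.14 in naive, 10.33, 10.57, 10.71 and 10.69 in non-dependent and 10.58, 10.50 and 10.58 in dependent rats. Both alcohol groups were below the naive arrays, and the difference to the dependent group had an adjusted p of 0.11. In BLA no member was at an unadjusted p under 0.05 between naive and dependent rats, where 5.9% of all genes were. The lowest p of that region was that of Sdhaf3, with naive arrays at 8.15, 8.04, 7.91 and 8.13 and non-dependent arrays at 6.98, 7.84 and 7.80 (-0.52, adjusted p = 0.78).

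**Figure D5:**
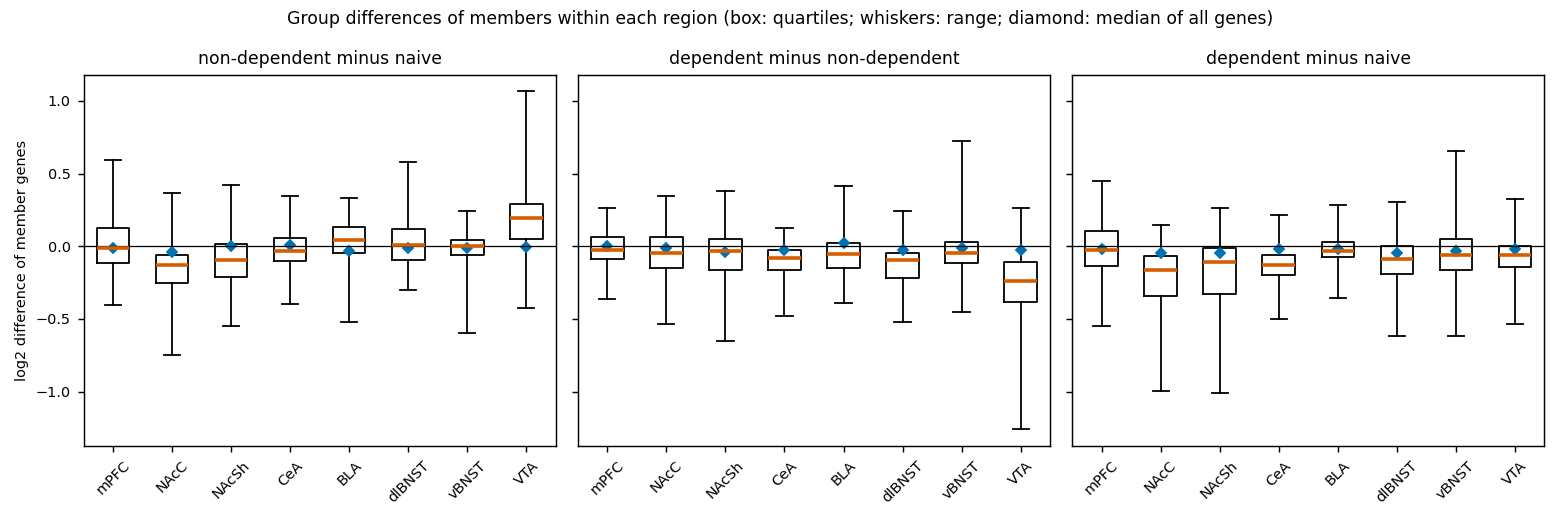
Differences between groups (log2, vertical axis) of the tested members within each region (horizontal axis) for the 3 comparisons, as boxes of quartiles with the median, whiskers over the whole range and a diamond at the median of all genes. No member passed the test, and the medians furthest from 0 are those of VTA, at 0.20 from naive to non-dependent and -0.24 from non-dependent to dependent rats.

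Since the members shared a regional order, their promoters were searched for motifs known from nuclear genes of mitochondrial proteins. RefSeq promoters (GRCr8, 250 bases before to 50 after the start) were found for 82 of the 90 members. The letters searched, on both strands, were GCGCANGCG (of the type bound by nuclear respiratory factor 1), CCGGAAG (bound by ETS factors such as Gabpa) and AAGATGGC (bound by YY1). They were present in 25.6%, 30.5% and 20.7% of the member promoters, against 14.7%, 18.6% and 5.92% of the 7346 promoters of genes tested and 6.26%, 9.22% and 3.44% of all 27457 promoters. Any of the 3 was present in 61.0%, 33.5% and 16.7%. Matches of different motifs overlapped in 0 member promoters. Among members lower in dependent than naive rats 64.3% of 14 promoters held one, and among the other tested members 62.3% of 61. The following windows of 120 bases before the start show the matches in 4 members named above, all on the + strand, with the matching letters in capitals.
Sdhb, chr5:158547814-158547933: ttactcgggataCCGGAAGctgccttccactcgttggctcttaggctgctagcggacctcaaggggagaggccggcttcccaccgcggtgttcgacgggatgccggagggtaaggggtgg
Sdha, chr1:30764433-30764552: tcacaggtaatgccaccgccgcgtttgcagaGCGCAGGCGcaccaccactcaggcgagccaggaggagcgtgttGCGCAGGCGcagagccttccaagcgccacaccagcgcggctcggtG
Ndufs6, chr1:31797280-31797399: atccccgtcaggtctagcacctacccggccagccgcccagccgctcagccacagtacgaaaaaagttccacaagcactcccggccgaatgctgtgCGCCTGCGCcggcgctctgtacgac
Cox5b, chr9:46417717-46417836: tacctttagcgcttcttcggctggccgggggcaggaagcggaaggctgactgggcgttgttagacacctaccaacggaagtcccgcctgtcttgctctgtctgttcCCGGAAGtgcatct
Sdhb and Cox5b hold the ETS letters, and Sdha the letters of the nuclear respiratory factor 1 type in 2 places, with a last capital that begins another match across the start. Ndufs6 holds them on the opposite strand, and the YY1 letters after the start, outside the window shown. A match of letters is a description and not a binding site.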

How the data were processed

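Expression was measured in 96 rat brain samples. The authors normalised the arrays with GCRMA (version 2.36.0 per the labels, where an R version also differs from that of the methods) and deposited log2 signals for 31099 probe sets, of which 20832 name 1 gene, 436 several and 9831 none in the platform annotation. Annotations naming several genes were left out (7 of them with a member's symbol), and a gene was read from its probe set with the highest mean. Members, gene lists and the 4 arrays left out were chosen with earlier results of these data known. Genes with a mean above 4 were tested with limma 3.58.1 (R 4.3.3; lmFit and eBayes): a fit of 24 cell means for regions, group averages and interaction, and a fit per region, with Benjamini-Hochberg adjustment over all genes at 0.05. The fits were tested on simulated data. Named genes were those with the largest regional differences or spreads, those called between groups, those with the lowest p in a comparison, and key subunits and isoforms. Alternatives covered the arrays, scaling, filter, array weights, a 3' to 5' covariate, a replicate block and left-out replicates and regions. The number of arrays and the array background limit the precision. Tables and plots were made with Python 3.11.15.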

Additional observations from a re-analysis of the deposited data

Results flagged for a closer look

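In 3 of the 120 sets of complex means tested (a complex, region and group with 4 arrays), 1 array stood far from the other 3, and chance alone gives such a gap in about 1 set in 20. The complex I mean of CeA dependent replicate 4 was 9.6428, below the others at 9.7411 to 9.7539. The complex IV mean of dlBNST dependent replicate 1 was 10.7060, above the others at 10.3146 to 10.3742. The assembly factor mean of dlBNST non-dependent replicate 4 was 8.8166, above the others at 8.4553 to 8.4941.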

How the results depend on the processing

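Of the 53 differences of single members that were followed over the settings, 1 changed sign, that of Sdhaf1 in BLA with naive arrays only (-0.025). Among all members more signs turned. From non-dependent to dependent rats 2 of 82 were above 0, and with all 96 arrays 53 were. From naive to non-dependent rats 38 were above 0, and with all 96 arrays 17. Of the members' medians, that from non-dependent to dependent rats turned from -0.08 to 0.06 with all 96 arrays and that of dlBNST from 0.05 to -0.01 with median scaling. The median from naive to non-dependent rats, -0.002, lay between -0.13 and 0.02 over all settings and on both sides of 0. Members lower in dependent than naive rats (17) numbered 0 with all 96 arrays, 1 with 95 arrays, 10 with quantile normalisation, 11 with median scaling and 26 with array weights, and 12 to 21 with 1 replicate number of a group left out. Atp5f1a, Atp5mg, Ndufs3, Sdha, Sdhaf1 and Sdhb passed in each of the 12 replicate and 8 region omissions but with neither the 96 nor the 95 arrays. Members lower in dependent than non-dependent rats (4) numbered 0 with 96 and 0 with 95 arrays, 2 without the filter, 1 with quantile normalisation, 22 with array weights, 7 with the 3' to 5' ratio as a covariate, 1 without NAcSh, 0 without CeA, 0 without dlBNST, 2 without vBNST, 1 without VTA and 0 to 6 with a replicate left out. Members lower in non-dependent than naive rats (1) numbered 0 with 96 arrays, 0 with median scaling, 3 with array weights, 2 with the 3' to 5' covariate, 0 without mPFC, NAcC, dlBNST or vBNST, 2 without CeA, 2 without VTA and 0 to 1 with a replicate left out. Calls within regions (0) were 25 with array weights, 2 with both groups only and 0 to 6 with a replicate left out, and calls of the interaction (0) were 22 with array weights, 1 with 95 arrays and 0 to 2 with a replicate left out. The shares of all genes that passed under the other settings were not counted, here or for the regions below. The cause of these changes was not tested.

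For regions, all 96 arrays gave 0 members higher in BLA, 1 in CeA, 2 in NAcC, 1 in NAcSh, 38 in VTA, 7 in dlBNST and 8 in vBNST, and 20 lower in BLA, 16 in NAcC, 27 in NAcSh, 8 in mPFC and 0 in VTA, dlBNST and vBNST. The 95 arrays gave 2 higher in NAcSh and 0 in BLA, and 7 lower in dlBNST, 7 in vBNST and 2 in VTA. Naive arrays alone gave 0 higher in BLA, 5 in CeA, 37 in VTA, 14 in dlBNST and 17 in vBNST, and 33 lower in CeA, 31 in NAcC, 7 in dlBNST and 6 in vBNST. Median scaling gave 19 higher in NAcC and 13 in NAcSh, and 34 lower in NAcC and 20 in dlBNST. With a replicate left out, 0 to 1 members were higher in BLA.

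No pairing by replicate number was seen in the deviations, which does not settle whether a number stands for a rat. Deviations of arrays with the same group and number correlated at -0.0037 (median over 309 pairs), against -0.018 for other numbers. Those of the same region and number correlated at 0.012. With group and number as a replicate block, 17, 5 and 1 members were lower in the 3 comparisons. The block correlation was -0.0021, so this fit is close to the main fit and cannot account for the rats shared between regions. With 3 or 4 arrays per group and 8 members dim, small differences within a region could not be resolved.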
